A study of Mus musculus with 2 samples.

Results

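The levels of 7 genes that mark fast chemical transmission, out of 32285 genes counted, were measured in single nuclei of the mouse hypothalamus. The genes were chosen by function: the vesicular glutamate transporters Slc17a6, Slc17a7 and Slc17a8, the vesicular GABA transporter Slc32a1, the glutamate decarboxylases Gad1 and Gad2, and the glutamine synthetase gene Glul. The nuclei were NeuN-positive and came from male wild-type C57BL/6J mice of 10 to 12 weeks, pooled into 1 gene expression library, with 1 hashtag library read from the same 11409 barcodes. The labels name no treatment and no transgene, so the comparisons were between nuclei labelled with the ARC (arcuate nucleus) hashtag and nuclei labelled with the PVH (paraventricular nucleus) hashtag, and between clusters of nuclei. The labels of both libraries name the ARC alone, and PVH is the name of the second hashtag in the deposited feature list.

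A neuron that releases glutamate loads it into vesicles with a transporter of the Slc17 family. A neuron that releases GABA makes it from glutamate with Gad1 (GAD67) or Gad2 (GAD65) and loads it with Slc32a1, which also carries glycine. Glul turns glutamate into glutamine, mostly in astrocytes, and neurons make glutamate from that glutamine again. In the hypothalamus, AGRP neurons are known as GABAergic, neurons of the ventromedial hypothalamus (VMH) and most SIM1 neurons of the paraventricular nucleus as glutamatergic, and POMC neurons as a mixture.

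On GRCm38, in the GENCODE M21 annotation, Slc17a6 spans chr7:51622006-51671119 (plus strand), Slc17a7 chr7:45163949-45176142 (plus strand), Slc17a8 chr10:89574020-89621253 (minus strand) and Glul chr1:153899944-153909723 (plus strand). All 3 genes of the GABA group lie on chromosome 2 on the plus strand, Slc32a1 at chr2:158610767-158615748, Gad1 at chr2:70553072-70602014 and Gad2 at chr2:22622205-22693874. Slc32a1 has a divergent noncoding neighbour, Gm14204, on the minus strand, whose nearest end is 44 bases away, and Gad1 is overlapped by the antisense transcript Gad1os. The bases before the RefSeq start of the 4 genes on which the results below turn are printed 5′ to 3′ (GRCm38.p6, plus strand), since Slc32a1, Gad1 and Gad2 varied together over clusters and Slc17a6 the other way, and since the Slc32a1 window holds the start of Gm14204. Bases that GENCODE places in an exon of the gene were left off, which shortened the Gad1 window to 163 bases and that of Gad2 to 128. Capitals mark matches on either strand to TATAAA (in 12.4% of 32851 RefSeq promoter windows of 250 bases), CCAAT (33.8%), GGGCGG (32.7%), CAGCTG (13%) or TAATTA (4.84%).
Slc17a6, chr7:51621580-51621829: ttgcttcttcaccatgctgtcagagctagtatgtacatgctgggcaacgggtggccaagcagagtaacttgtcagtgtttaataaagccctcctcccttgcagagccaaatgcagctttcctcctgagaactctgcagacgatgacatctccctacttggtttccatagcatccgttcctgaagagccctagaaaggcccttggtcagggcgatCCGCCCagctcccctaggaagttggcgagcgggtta
Slc32a1, chr2:158610508-158610757: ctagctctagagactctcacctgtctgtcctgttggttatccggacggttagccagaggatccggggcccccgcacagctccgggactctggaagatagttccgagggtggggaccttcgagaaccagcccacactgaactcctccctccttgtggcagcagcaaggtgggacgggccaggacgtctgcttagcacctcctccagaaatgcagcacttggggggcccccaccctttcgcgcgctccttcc
Gad1, chr2:70561879-70562041: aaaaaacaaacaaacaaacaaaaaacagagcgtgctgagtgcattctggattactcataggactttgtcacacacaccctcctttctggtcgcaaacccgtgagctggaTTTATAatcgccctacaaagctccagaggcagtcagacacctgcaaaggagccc
Gad2, chr2:22622077-22622204: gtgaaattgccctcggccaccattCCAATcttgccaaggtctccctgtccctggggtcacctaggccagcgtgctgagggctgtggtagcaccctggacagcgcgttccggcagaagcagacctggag
Slc17a6 had 1 match to GGGCGG, Gad1 1 to TATAAA and Gad2 1 to CCAAT, while Slc32a1 had none. No motif was found in more than 1 of the printed stretches of the GABA genes. The windows of Slc32a1, Gad1 and Gad2 held 12, 17 and 13 CG pairs in their full 250 bases, against 7 for Slc17a6 and a median of 6 over all promoters. The first windows of Glul, Slc17a7 and Slc17a8 held 15, 9 and 5, so a high count was not particular to the GABA genes.

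After the filters the 10170 nuclei fell into 3767 with the ARC hashtag, 3074 with the PVH hashtag, 944 with both (doublets) and 2385 with neither. The 6841 nuclei with a single hashtag held 36225553 UMIs (unique molecular identifiers, which count transcripts), with a median of 4911 per nucleus and a range of 997 to 11970. The median was 4827 for ARC and 5039 for PVH. Clustering without the 7 genes gave 20 clusters of neurons and 1 of 29 nuclei led by oligodendrocyte-lineage genes, numbered by size. The hashtags followed the regional markers, since 766 of 777 AGRP-like and 279 of 284 POMC-like nuclei carried the ARC hashtag, and 70 of 958 SIM1-like nuclei did so. There was 1 library and thus no replicate, so no test was run. Levels are UMIs of a gene per 1000000 UMIs (CPM) with exact Poisson intervals, shares have exact binomial intervals and ratios exact conditional binomial intervals, all at 95%. These intervals cover counting error only and not the differences between mice or dissections.

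Gad2 was seen in the most nuclei and Slc17a7 in the fewest. Gad2 had 4600 UMIs in 2784 nuclei (40.7%, interval 39.5 to 41.9). Gad1 had 2052 UMIs in 1602 nuclei (23.4%, 22.4 to 24.4), Slc17a6 2199 in 1526 (22.3%, 21.3 to 23.3) and Slc32a1 1345 in 1177 (17.2%, 16.3 to 18.1). Most of these nuclei held a single UMI of the gene. That was so for 87.5% of nuclei with Slc32a1, 78.7% of those with Gad1, 70.2% of those with Slc17a6 and 59.9% of those with Gad2, and the most in any nucleus were 4, 6, 8 and 8 UMIs. A nucleus without a UMI was therefore not shown to lack the transcript. Glul had 447 UMIs in 398 nuclei (5.82%, 5.28 to 6.40). Slc17a8 had 80 UMIs in 69 nuclei (1.01%, 0.786 to 1.28). Slc17a7, the main transporter of glutamatergic neurons of cortex and hippocampus, had 4 UMIs in 4 nuclei, 3 with the PVH and 1 with the ARC hashtag, and was at 0 in 17 of the 20 neuron clusters.

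Slc17a6 was higher in the PVH nuclei, Slc17a8 and Gad1 were higher in the ARC nuclei, and the intervals for Slc32a1, Gad2 and Glul included no difference. Slc17a6 stood at 77.6 CPM (73.5 to 82.0) with the PVH hashtag and 46.2 (43.2 to 49.3) with the ARC hashtag, a log2 ratio of PVH over ARC of 0.75 (0.63 to 0.87). It was seen in 29.3% of PVH and 16.6% of ARC nuclei, and in such sums fewer nuclei of a type and less RNA per nucleus cannot be told apart. Gad1 stood at 47.8 CPM in PVH and 64.3 in ARC, a log2 ratio of -0.43 (-0.56 to -0.30). Gad2, the other decarboxylase gene, stood at 128 CPM (123 to 134) in PVH and 126 (121 to 131) in ARC, a log2 ratio of 0.03 (-0.06 to 0.11). Slc32a1 stood at 36.8 and 37.5 CPM, a log2 ratio of -0.03 (-0.18 to 0.13). Glul stood at 11.7 and 12.9 CPM, with a log2 ratio of -0.15 (-0.43 to 0.13).

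Slc17a8 was the 1 member past 2-fold, at 1.14 CPM (19 UMIs) in PVH and 3.13 CPM (61 UMIs) in ARC, 2.76-fold higher in ARC with a log2 ratio of -1.46 (-2.29 to -0.70). Of the 6 members with at least 50 UMIs, 0 were at least 2-fold higher in PVH and 1 was at least 2-fold lower, against 2.26% and 1.74% of the 15846 genes counted the same way. Their median log2 ratio was -0.09, and that of all these genes -0.05. The Slc17a8 ratio rested on hashtag calls at the quantile of 0.8 used in the study. With the stricter quantile of 0.99, which left 1229 ARC and 407 PVH nuclei, it was -0.29 (-1.91 to 1.09).

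**Figure D1:**
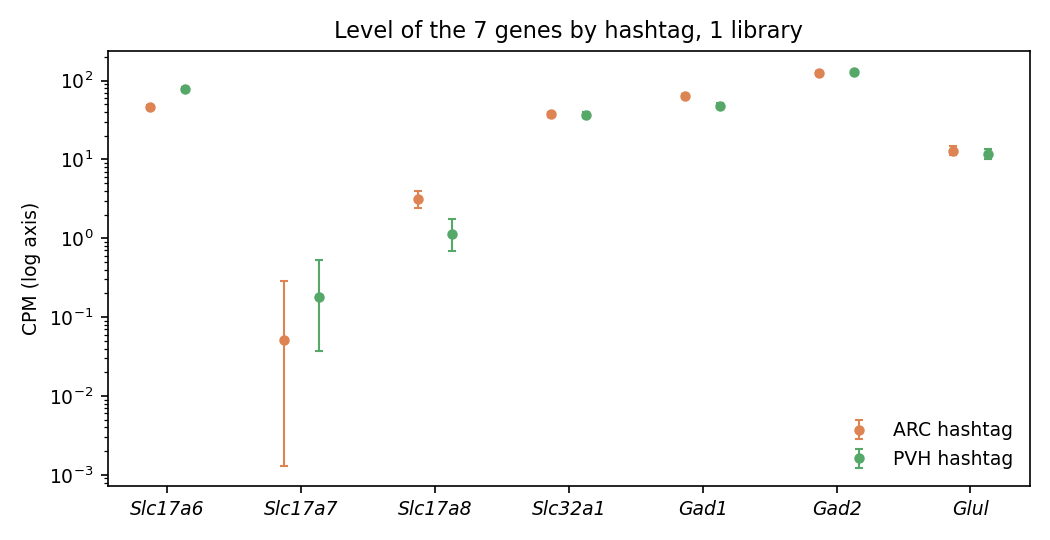
Summed level of each of the 7 genes (CPM, log axis) in the nuclei with the ARC hashtag (orange) and the PVH hashtag (green), with exact 95% Poisson intervals. Slc17a6 is higher in PVH (77.6 against 46.2 CPM), Slc17a8 and Gad1 are higher in ARC, and the intervals of Slc32a1, Gad2 and Glul overlap.

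The clusters split into a glutamate side and a GABA side, which were defined by Slc17a6 and Slc32a1 themselves. In 9 of the 20 neuron clusters Slc17a6 was above and Slc32a1 below its level in the other neurons (glutamate side, 2142 nuclei), and in 9 it was the other way (GABA side, 3959 nuclei). The other 2 were cluster 5 and the POMC-like cluster. For 7 and 6 of these clusters the intervals of both genes stayed away from no difference. The exceptions were, for Slc32a1, the AGRP-like (log2 over the other neurons 0.02, -0.23 to 0.26), Somatostatin-like (0.38, -0.03 to 0.76) and KNDy-like clusters (-0.33, -0.88 to 0.18) and cluster 20, and, for Slc17a6, cluster 8. Both sides depended on the clustering. With ARC nuclei clustered alone, 1293 of 2443 GABA-side nuclei stayed on their side (52.9%), and 505 of 611 glutamate-side nuclei did (82.65%). With PVH nuclei alone the shares were 90.6% and 98.7%. In the joint clusterings tried, between 70.2% and 100% stayed on the GABA side and between 92.8% and 99.9% on the glutamate side. The glutamate side held 50% of the PVH neurons (1531 nuclei) and 16.3% of the ARC neurons (611), and the GABA side 49.5% and 65.2%. All 4 SIM1-like clusters, the VMH-like and the KNDy-like cluster (kisspeptin, neurokinin B and dynorphin neurons) were on the glutamate side. AGRP-like, Dopaminergic-like and Somatostatin-like neurons were on the GABA side.

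Slc17a6 ranged 44.9-fold over the neuron clusters, and the KNDy-like neurons stood above all others. They had 227 CPM (199 to 257, 243 UMIs in 135 of 215 nuclei), the next was SIM1-like cluster 7 at 144 (128 to 162), and these intervals did not overlap. The KNDy-like cluster also passed 3 tanycyte markers, whose part in its levels was not tested. VMH-like neurons had 122 CPM (105 to 141) and the SIM1-like class 116 (107 to 125). The lowest level was in Somatostatin-like neurons, 5.05 CPM (1.85 to 10.99, 6 UMIs in 239 nuclei). AGRP-like neurons had 14.2 CPM (10.9 to 18.3) and Dopaminergic-like neurons 15.1 (10.7 to 20.8). In the order of levels, 2 of the 19 steps between neighbouring clusters had intervals apart, the step below the KNDy-like cluster and that from cluster 3 (33.7 CPM) to cluster 2 (19.3 CPM). All the other neighbours overlapped. The oligodendrocyte-lineage cluster, in which the gene should be absent, held 3 Slc17a6 UMIs, or 19.0 CPM (3.92 to 55.5). The GABA side as a whole, at 21.1 CPM, was not above that level (log2 ratio 0.15, -1.40 to 2.44), so these levels could not be told apart at this depth.

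Slc32a1 spanned a narrower range, from 59.5 CPM (52.2 to 67.6) in cluster 2, led by G630016G05Rik, Sp8 and Abcb5, to 14.2 CPM (8.82 to 21.8) in the VMH-like cluster, which is 4.18-fold. Not 1 of the 19 neighbouring steps had intervals apart. Gad2 ran from 234 CPM (219 to 250) in cluster 2 to 18.4 (10.5 to 29.9) in SIM1-like cluster 19, also with no step apart. Gad1 ran from 121 CPM (102 to 141) in cluster 11, led by Htr3b, Col4a3 and Vgll3, to 6.91 (2.53 to 15.0) in cluster 19. Its single step with intervals apart was from the POMC-like (48.6 CPM) to the KNDy-like cluster (23.3 CPM).

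**Figure D2:**
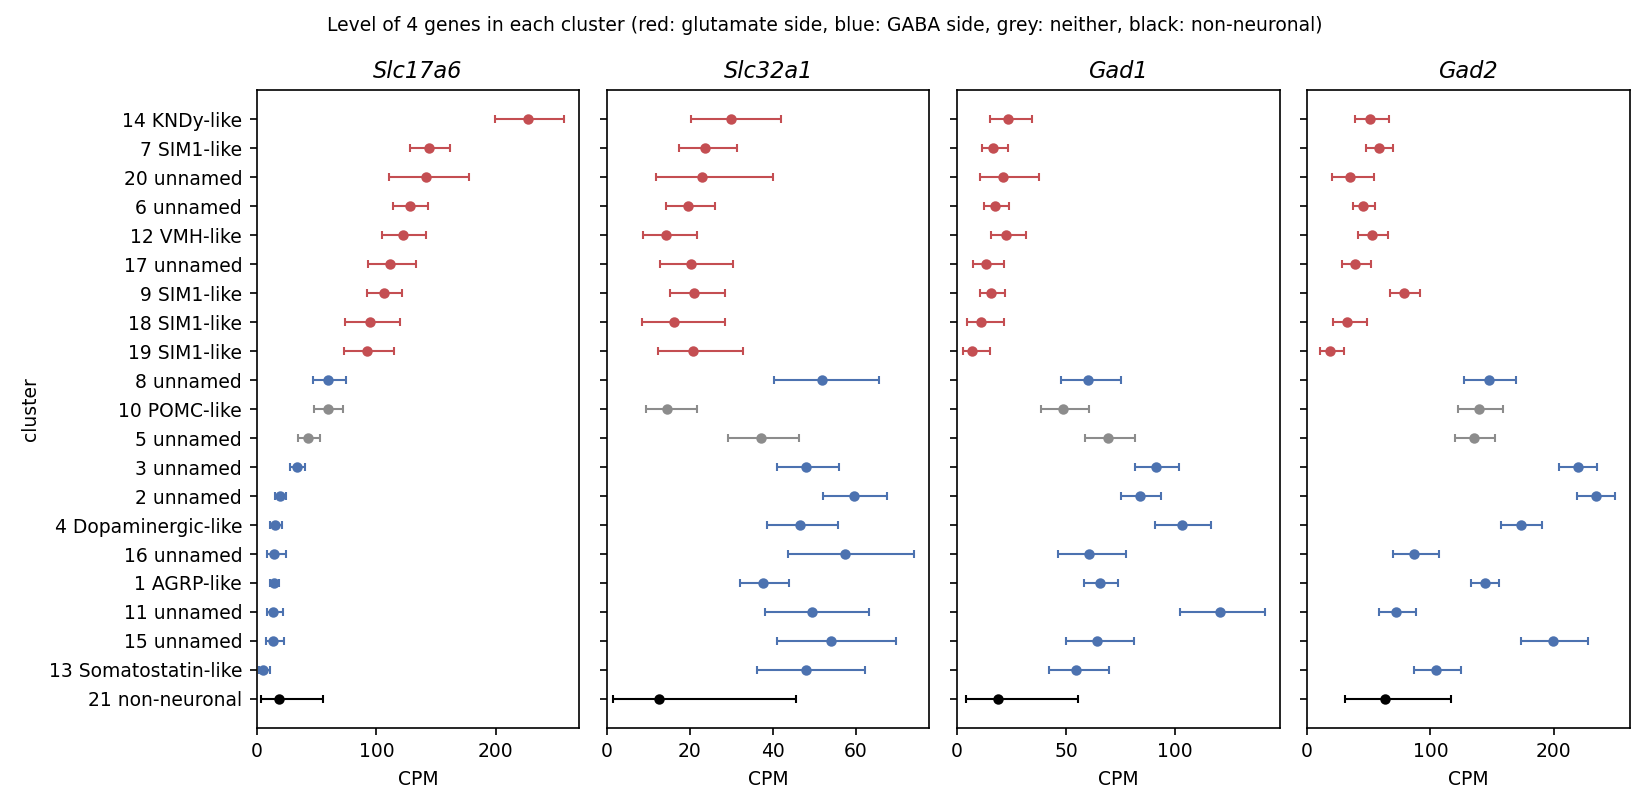
Level of Slc17a6, Slc32a1, Gad1 and Gad2 (CPM) in each cluster, ordered by Slc17a6, with exact 95% Poisson intervals. Red clusters are on the glutamate side, blue on the GABA side, grey on neither, and the black cluster is non-neuronal. The KNDy-like cluster is the highest for Slc17a6 (227 CPM), and the POMC-like cluster has Gad2 in the range of the GABA side but one of the lowest Slc32a1 levels (14.6 CPM).

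Gad1 and Gad2 did not enter the definition of the sides, and Gad1 was lower in each of the 9 glutamate-side clusters than in any GABA-side cluster. Gad1 was between 6.91 and 23.3 CPM in the glutamate-side clusters and between 54.7 and 121 CPM in the GABA-side clusters. Gad2 was between 18.4 and 78.7 CPM on the first and between 71.9 and 234 on the second, so that the sides overlapped for Gad2, with SIM1-like cluster 9 above cluster 11. Over the summed nuclei Gad1 was 4.81-fold (4.16 to 5.59) and Gad2 3.40-fold (3.12 to 3.71) higher on the GABA side. Slc32a1, which helped define the sides, was at 49.1 and 20.8 CPM, and Slc17a6 at 21.1 and 129 CPM. Slc17a8 (2.94 CPM on the glutamate side and 2.09 on the GABA side) and Glul (13.8 and 12.0 CPM) had log2 ratios of 0.49 (-0.19 to 1.17) and 0.20 (-0.09 to 0.49). Among the 6 members, 1 was at least 2-fold higher on the glutamate side and 3 at least 2-fold lower, beside 1.97% and 1.84% of 15545 genes. For 2 of these 4 the direction was set by the definition.

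The noncoding neighbour of Slc32a1 separated the sides more widely than Slc32a1 did. Gm14204, 44 bases from Slc32a1, was at 40.1 CPM (806 UMIs) on the GABA side and 4.74 CPM (58 UMIs) on the glutamate side, 8.46-fold apart (6.48 to 11.2), where Slc32a1 was 2.36-fold apart (2.05 to 2.71). Gm14204 stood between 27.5 and 59.4 CPM in the 9 GABA-side clusters and at 26.0 in cluster 5. It stood between 0 and 7.04 CPM in the 9 glutamate-side clusters, at 4.86 (2.10 to 9.57) in the POMC-like cluster, and the ranges did not overlap. Unlike the 7 genes, it was not withheld from the clustering. Within nuclei, Gm14204 was seen in 18.1% (15.9 to 20.4) of those with a Slc32a1 UMI and 10.6% (9.77 to 11.4) of those without. Gad1os was at 13.7 CPM on the GABA side and 2.04 CPM on the glutamate side, 6.70-fold apart (4.44 to 10.5), an interval that overlapped that of Gad1. Gm14205, which overlaps Slc32a1, had 11 UMIs in all, too few to compare, and Myo3a, next to Gad2, was at 1.94 CPM on the GABA side and 2.53 on the glutamate side. The sources used here do not say whether counting used the strand, so reads of Gad1 and Gad1os may have been exchanged.

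**Figure D3:**
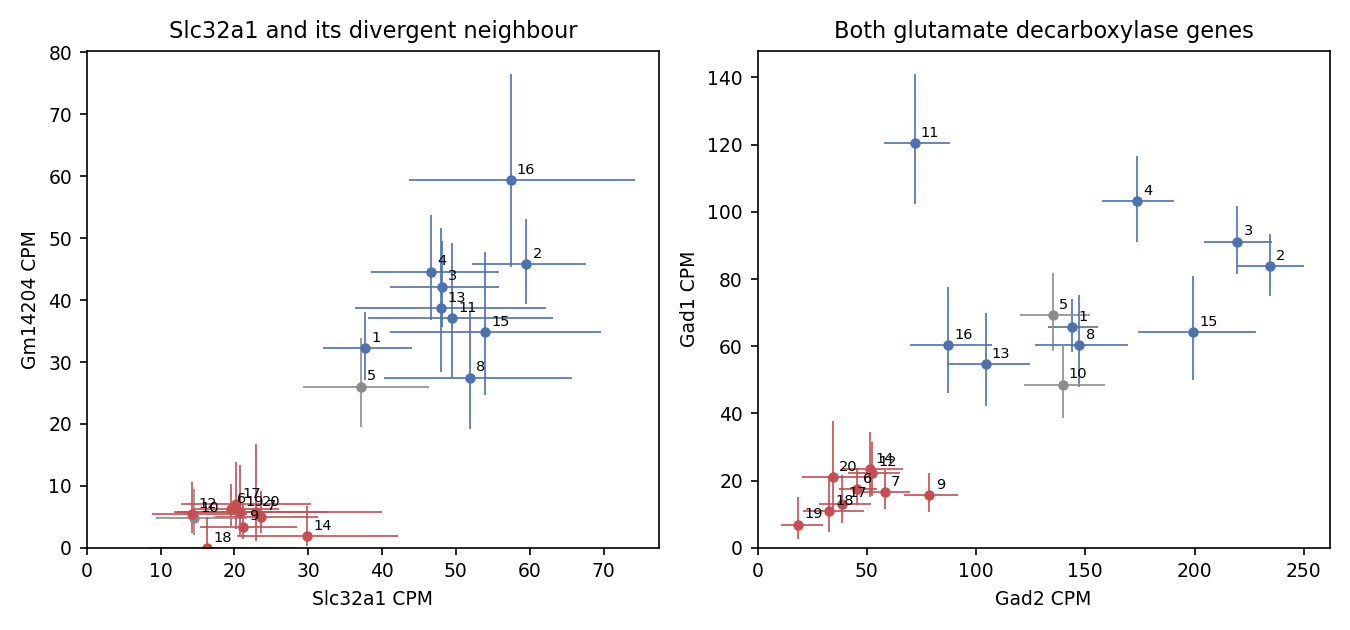
Left, CPM of Slc32a1 against Gm14204, and right, CPM of Gad2 against Gad1, for the 20 neuron clusters (numbers), with exact 95% Poisson intervals and red, blue and grey for glutamate side, GABA side and neither. Gm14204 leaves a gap between 7.04 and 26.0 CPM, and cluster 11 is the only one with more Gad1 than Gad2 UMIs.

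Across the 20 neuron clusters, which share 1 library, the genes most alike in log2(CPM + 1) were Cacna2d1 (a calcium channel subunit) for Slc17a6 (Pearson r = 0.83), followed by Calb1, Chst8, Slit2 and Gm10419. For Slc32a1 they were Gm14204 (0.87), Uqcrb, Nrxn3, Cdc26 and Dlx6os1 (0.77). Gad1 was most like Gm15261, Gm14204, Hccs, Trerf1 and Six3, and Gad2 most like Rhbdd2, Six3, Six3os1, Rasgrp1 and Cacnb4. Slc17a8 was most like Gm1604a, St18, Psap, Fndc1 and Ank, and Glul, over 21 clusters, most like Arap2, Ppfibp1, Glrb, Mast3 and Mink1. Slc17a7 was most like Aldoa (0.73), Apoe, 9430041J12Rik, Tifa and Bag4, an order that rests on 4 UMIs. Among the members, Gad1 and Gad2 were the most alike (r = 0.86), Slc32a1 had r = 0.79 with Gad1 and 0.68 with Gad2, and Slc17a6 had -0.76, -0.77 and -0.65 with Slc32a1, Gad1 and Gad2. These values describe clusters that differ in size and depth and were drawn from 9563 genes.

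The POMC-like cluster had Gad2 near the level of AGRP-like neurons, Gad1 between the sides, and the vesicular GABA transporter among its lowest levels. Its Gad2 was at 140 CPM (122 to 159), beside 144 (133 to 156) in AGRP-like neurons, with a log2 ratio of -0.04 (-0.27 to 0.18). Gad1 was at 48.6 CPM beside 65.7, a log2 ratio of -0.44 (-0.81 to -0.07). Slc32a1, in contrast, was at 14.6 CPM (24 UMIs) beside 37.7 (159 UMIs), a log2 ratio of -1.37 (-2.06 to -0.75), and was not separated from the glutamate side (log2 ratio -0.52, -1.19 to 0.09). Slc17a6 was at 59.5 CPM (48.3 to 72.5), 4.18-fold above AGRP-like neurons and 0.459 of the glutamate-side level. The cluster thus held 12.9 UMIs of Gad1 and Gad2 for each Slc32a1 UMI (log2 3.69, 3.09 to 4.36). The same count was 5.15 on the GABA side (log2 2.36, 2.27 to 2.46) and 3.23 on the glutamate side (log2 1.69, 1.49 to 1.90), and no other neuron cluster was above 6.46. Slc17a6 was seen in 63 of the 284 POMC-like nuclei and Gad1 or Gad2 in 169, with 43 holding both (15.1%, 11.2 to 19.9). In nuclei with Slc17a6 the share with Gad1 or Gad2 was 68.3% (55.3 to 79.4), and in those without it 57.0% (50.2 to 63.6). These intervals overlapped.

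Cluster 5, which was 417 of 427 ARC nuclei and led by Gm35041, Gm50445 and Rab37, held nuclei of both kinds. Clustered again by itself, without the 7 genes (a step chosen after seeing the data), it gave 245 nuclei with Slc17a6 at 9.82 CPM (4.90 to 17.6), Slc32a1 at 49.1 and Gad1 at 98.2. The other 182 nuclei had Slc17a6 at 81.6 (64.5 to 102), Slc32a1 at 23.0 and Gad1 at 35.6. Their Slc17a6 differed by 3.05 on the log2 scale (2.14 to 4.12) and their Gad1 by -1.46 (-2.06 to -0.90). Gad2 differed less, at 155 CPM in the first and 112 (91.7 to 135) in the second (log2 -0.47, -0.83 to -0.12). The summed Gad2 level of the 182 nuclei was above that of each glutamate-side cluster. Its interval just overlapped that of cluster 9 (78.7 CPM, 66.95 to 91.85). Slc17a6 was seen in 55 of the 182 nuclei and Gad2 in 61, and summed levels do not tell whether the same nuclei held both.

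The balance of the decarboxylase genes also differed between clusters. Over all neurons there were 0.446 Gad1 UMIs for each Gad2 UMI, with 0.511 in ARC and 0.372 in PVH nuclei. Cluster 11, with 263 of 268 nuclei from ARC, was the only one with more Gad1 than Gad2, 156 against 93 UMIs (log2 ratio 0.75, 0.37 to 1.13). Its Gad1 was 2.21-fold above the other neurons (log2 1.15, 0.90 to 1.38) and its Gad2 was below them (log2 -0.85, -1.16 to -0.55). The lowest ratio was 0.200 in SIM1-like cluster 9 (log2 -2.32, -2.92 to -1.77). Its Gad1 was near the floor, at 15.7 CPM (32 UMIs), beside 19.0 (3.92 to 55.5) in the oligodendrocyte-lineage cluster. Also above the mean of all neurons (log2 -1.16) were cluster 16, with 0.693 (log2 -0.53, -1.02 to -0.04), and the Dopaminergic-like cluster, with 0.594 (log2 -0.75, -0.98 to -0.53). Below the mean were cluster 15, with 0.321 (log2 -1.64, -2.05 to -1.24), and cluster 2, with 0.358 (log2 -1.48, -1.67 to -1.30). SIM1-like cluster 7 was also below it, with 0.2845 (log2 -1.81, -2.42 to -1.24) and Gad1 again near the floor (16.6 CPM).

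Slc17a8 was concentrated in the VMH-like neurons. They held 28 of the 80 UMIs, 19.0 CPM (12.6 to 27.5) in 22 of 262 nuclei (8.40%), and the most in 1 nucleus were 3 UMIs. With PVH nuclei clustered alone, the class was named anew on another set of nuclei, and its level was 3.11 CPM (1.34 to 6.13). The next clusters were cluster 8 at 5.34 CPM (7 UMIs) and the AGRP-like cluster at 3.56 (1.99 to 5.87, 15 UMIs), and the VMH-like interval was apart from both. In 5 neuron clusters the count was 0, KNDy-like neurons among them. Within the VMH-like cluster Slc17a8 was at 22.0 CPM (14.1 to 32.7, 24 UMIs) in the 195 ARC nuclei and 10.5 (2.87 to 26.9, 4 UMIs) in the 67 PVH nuclei. Slc17a6 was seen in 21 of the 69 nuclei with Slc17a8 (30.4%, 19.9 to 42.7) and in 22.2% (21.2 to 23.2) of the others. A GABA gene was seen in 42 of the 69 (60.9%, 48.4 to 72.4) and in 58.5% (57.3 to 59.6) of the others. On the GABA side, 27 of 37 nuclei with Slc17a8 had a GABA gene UMI, and on the glutamate side 14 of 30.

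Glul spanned 4.08-fold over the neuron clusters, with no neighbouring step apart. It was between 6.91 and 28.1 CPM, and the top value, in cluster 17, rested on 1 nucleus with 12 UMIs, without which it was 17.7 CPM (10.8 to 27.4). That nucleus held 24 UMIs of neuronal markers and 0 of astrocyte and oligodendrocyte markers. The oligodendrocyte-lineage cluster had 44.3 CPM (17.8 to 91.3, 7 UMIs). Glul was higher still in 75 nuclei split from cluster 8, at 104 CPM (62.5 to 162, 19 UMIs), where 5 of the 6 astrocyte markers stood out, at 295 CPM summed. These nuclei passed the sort for the neuronal protein NeuN, yet the neuronal markers were at 0.337 of the level in all neurons and the median depth was 2312 UMIs. They stayed within cluster 8, and so within the neuron and GABA-side totals. In the neuron clusters the summed astrocyte markers were between 0 and 50.4 CPM, highest in cluster 8 itself. In cluster 8 Glul was at 34.0 CPM (23 UMIs) in ARC and 7.88 (5 UMIs) in PVH nuclei, and the 75 astrocyte-marked nuclei, 62 of them ARC, held 19 of its 28 UMIs. Without cluster 8 the log2 ratio of Glul over all nuclei, PVH over ARC, was -0.04 (-0.33 to 0.24).

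**Figure D4:**
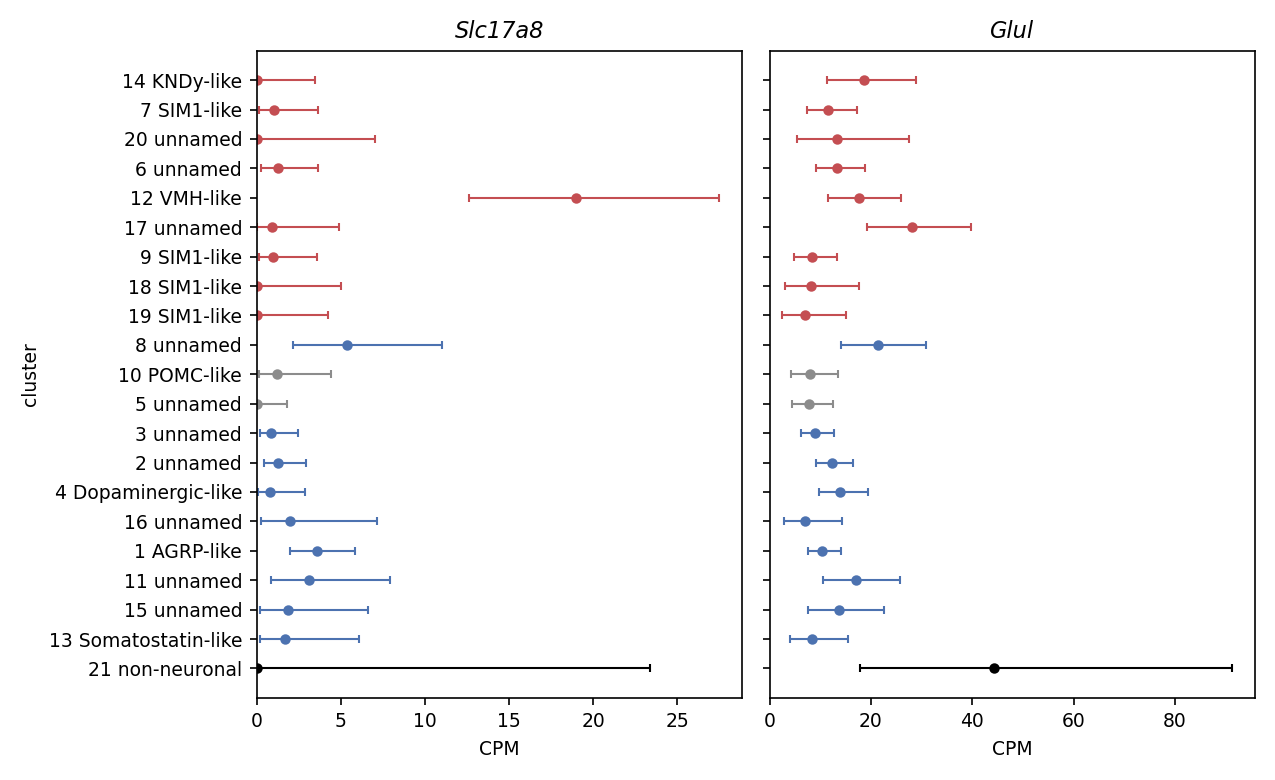
Level of Slc17a8 and Glul (CPM) in each cluster, in the same order and colours as for the other genes (red glutamate side, blue GABA side, grey neither, black non-neuronal), with exact 95% Poisson intervals. Slc17a8 stands out in the VMH-like cluster (19.0 CPM), while Glul spreads from 6.91 to 28.1 CPM over neurons and reaches 44.3 CPM in the non-neuronal cluster.

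The 2 hashtags held different mixes of clusters, whose part in the Slc17a6 difference was not tested. Within 6 of the 7 clusters that held at least 25 nuclei of each hashtag, the interval of the Slc17a6 log2 ratio of PVH over ARC included 0. For cluster 2 (-1.28 to 1.68, 5 UMIs in ARC) and cluster 6 (-0.34 to 1.12, 27 ARC nuclei) it also included the 0.75 of all nuclei. The others of these ended between 0.20 in the Dopaminergic-like cluster and 0.74 in cluster 18. In the VMH-like cluster, for example, Slc17a6 was at 117 CPM (97.7 to 139) in ARC and 137 (102 to 179) in PVH nuclei, and in cluster 3 at 36.5 and 32.2 CPM. The exception was cluster 8, with 31.1 CPM (21 UMIs) in ARC and 89.8 (57 UMIs) in PVH. Split by itself, cluster 8 gave 99 nuclei, 17 of them ARC, with Slc17a6 at 134 CPM (99.8 to 176). Gad2 in the Dopaminergic-like cluster was at 156 CPM (138 to 176) in ARC and 207.5 (178 to 240) in PVH nuclei, the reverse of its Glul, at 18.8 (31 UMIs) and 4.66 CPM (4 UMIs). Slc32a1 in cluster 2 was at 26.7 CPM (7 UMIs in 40 nuclei) in ARC and 61.9 CPM (228 UMIs) in PVH.

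Nuclei with a UMI of both vesicular transporters were few. Slc17a6 and Slc32a1 were seen together in 189 of 6841 nuclei (2.76%, 2.39 to 3.18), with 2.36% (1.90 to 2.90) in ARC and 3.25% (2.66 to 3.94) in PVH. With at least 2 UMIs of each there were 3 such nuclei, 1 AGRP-like and 1 of cluster 5 with the ARC hashtag and 1 of cluster 6 with the PVH hashtag. Of these, 2 held 1 Gad2 UMI and 1 held no Gad1 or Gad2 UMI. Of the 189 nuclei, 110 were on the glutamate side (5.14% of its nuclei), 62 on the GABA side (1.57%) and 17 in the other neuron clusters (2.39%). By cluster, the share was highest in the KNDy-like cluster, with 18 of 215 nuclei (8.37%, 5.04 to 12.9). Over all nuclei the share was higher in deeper nuclei. It was 2.02% in the nuclei with the fewest UMIs, 2.15% in the middle group and 4.12% (3.34 to 5.02) in those with the most, at median depths of 3949, 4911 and 6616. With each nucleus thinned to 1000 UMIs it was 0.205% (0.112 to 0.343), or 14 nuclei. Among hashtag doublets, the barcodes called for both hashtags, the share was 5.61% (4.23 to 7.28), and 0.213% (0.0258 to 0.766) when thinned. Their median depth was 5216 UMIs, beside 4911 in the singlets, and the stricter hashtag quantile of 0.99 left 227 of 944. How many of them held 2 nuclei was not tested. A droplet that held 2 nuclei of 1 hashtag counts as single here, and no other doublet caller was run.

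Nuclei with Slc17a6 held Slc32a1 less often than nuclei without it at full depth. Slc32a1 was seen in 12.4% (10.8 to 14.1) of nuclei with Slc17a6 and in 18.6% (17.6 to 19.7) of nuclei without it. Among hashtag doublets these shares were 22.2% (17.1 to 28.0) and 23.7% (20.6 to 27.0). Thinned to 1000 UMIs, Slc32a1 was seen in 14 of 333 single nuclei with Slc17a6 (exact interval 2.32% to 6.95%) and in 3.93% (3.48 to 4.44) of those without, so the contrast was not seen at that depth. Inside the sides the contrast was narrower, but Slc17a6 and Slc32a1 define the sides, so a narrowing there was built in. On the glutamate side Slc32a1 was seen in 10.5% (8.71 to 12.5) of nuclei with Slc17a6 and 12.2% (10.4 to 14.3) of those without, and on the GABA side in 17.9% (14.0 to 22.3) and 21.5% (20.1 to 22.8). The oligodendrocyte-lineage nuclei had Slc32a1 in 2 of 29 (6.90%, 0.846 to 22.8) and Gad2 in 9 of 29, at a median of 4750 UMIs, beside a median of 5300 on the glutamate side. Slc17a6 and Slc32a1 were seen together in 0 of these 29 nuclei, with an exact upper bound of 11.9%. The Gad1 level of the glutamate side (16.8 CPM) and that of these nuclei (19.0 CPM, 3 UMIs) had a log2 ratio of -0.18 (-1.75 to 2.11), and for Gad2 and Slc32a1 it was -0.32 (-1.21 to 0.74) and 0.72 (-1.15 to 3.77). Those 29 nuclei held 2 Slc32a1, 3 Gad1 and 10 Gad2 UMIs, too few to tell the glutamate-side levels from a background. Within the glutamate side Gad2 ran from 18.4 CPM (10.5 to 29.9) in cluster 19 to 78.7 (66.95 to 91.85) in cluster 9. The source of these UMIs was not tested.

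**Figure D5:**
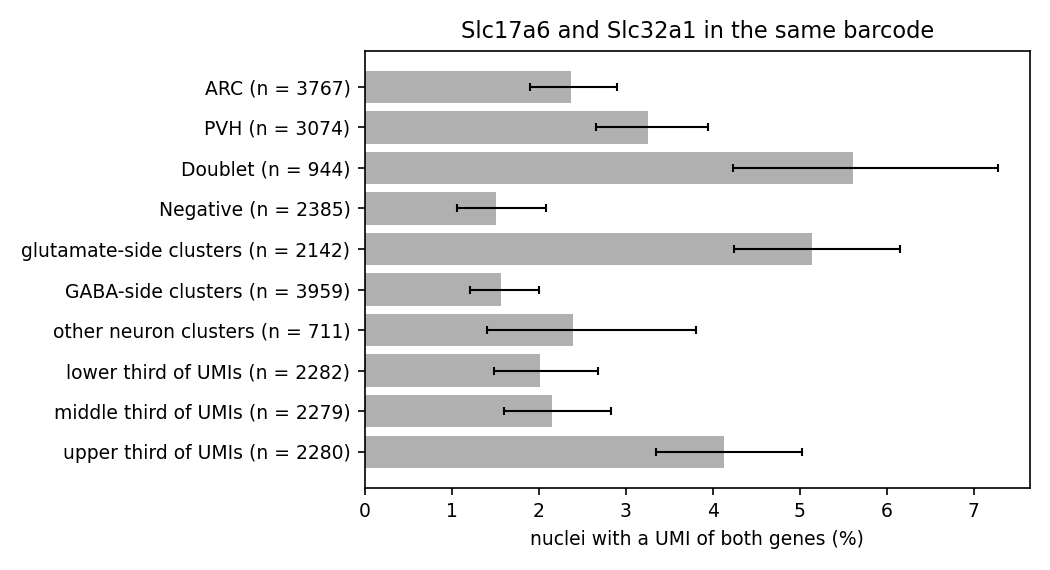
Share of nuclei (%) with at least 1 UMI of both Slc17a6 and Slc32a1, by hashtag call, by cluster side and by 3 groups of total UMIs, with exact 95% binomial intervals and the number of nuclei. Among the groups shown, hashtag doublets (5.61%) and the glutamate side (5.14%) are the highest, and the share is 4.12% in the group of nuclei with the most UMIs.

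In 3 groups of nuclei whose summed counts held both transporters, too few nuclei had both to tell whether they went together. The 99 nuclei split from cluster 8 had Slc17a6 at 134 CPM and Slc32a1 at 47.3 CPM (28.0 to 74.7), yet 2 of 34 nuclei with Slc17a6 (5.88%, 0.720 to 19.7) and 13 of 65 without it (20%, 11.1 to 31.8) held Slc32a1. In 106 nuclei split from cluster 3 and led by Lhx9, Slc17a6 was at 83.5 CPM (60.4 to 112), Gad1 at 83.5 and Gad2 at 79.6. There Slc32a1 was seen in 2 of 28 nuclei with Slc17a6 (7.14%) and in 15.4% of the others. In the 182 Slc17a6-rich nuclei of cluster 5, it was seen in 9 of 55 (16.4%, 7.77 to 28.8) and in 9.45% (4.98 to 15.9) of the others. All 3 pairs of intervals overlapped.

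Joint counts with the synthesis genes were more common. A glutamate transporter and a GABA gene were both seen in 708 of 6841 nuclei (10.3%, 9.64 to 11.1), in 9.13% of ARC and 11.8% of PVH nuclei, and in 16.6% (14.3 to 19.2) of hashtag doublets. With at least 2 UMIs on each side it was 71 nuclei (1.04%, 0.811 to 1.31), and thinned it was 0.746%. Slc17a6 was seen with Gad1 or Gad2 in 573 nuclei (8.38%). The share with Gad1 or Gad2 was 37.6% (35.1 to 40.0) in nuclei with Slc17a6 and 55.8% (54.5 to 57.2) in those without. This gap was wide in PVH, with 32.9% (29.8 to 36.0) and 55.9% (53.8 to 58.0), and narrower in ARC, with 44.3% (40.4 to 48.3) and 55.8% (54.0 to 57.5). The GABA genes went together: Gad2 was seen in 52.8% (50.3 to 55.3) of nuclei with Gad1 and 37.0% (35.7 to 38.3) of those without, and Gad1 or Gad2 in 60.8% (58.0 to 63.6) of nuclei with Slc32a1 and 49.9% (48.5 to 51.2) of those without. Thinned, the Gad2 shares were 18.0% (14.4 to 22.0) and 11.3% (10.6 to 12.1), while those for Slc32a1 overlapped, at 19.3% (14.7 to 24.5) and 16.5% (15.7 to 17.5). On the glutamate side the Slc32a1 contrast was not seen at full depth either, at 29.5% (23.9 to 35.7) and 27.4% (25.4 to 29.5). The GABA side kept it at full depth, at 70.5% (67.3 to 73.6) and 62.2% (60.5 to 63.9).

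Several other genes of the glutamate and GABA cycle differed less between the sides than Slc17a6, Slc32a1, Gad1 and Gad2 did. For the supply genes Gls2, Glud1, Got1, Got2, Slc38a1 and Slc38a2, the log2 ratios of glutamate over GABA side lay between -0.19 for Got2 (-0.32 to -0.06) and 0.02 for Slc38a2 (-0.05 to 0.10), beside a median of -0.05 over all genes. Lower on the glutamate side by less than 2-fold were the plasma membrane GABA transporter Slc6a11 (log2 -0.49, -0.74 to -0.25), the GABA transaminase Abat (-0.46, -0.55 to -0.38) and Aldh5a1, the next enzyme of GABA breakdown (-0.36, -0.56 to -0.17). Of the glutamate uptake genes, 1 of 3 was past 2-fold, the astrocyte transporter Slc1a3, at 2.37 CPM on the glutamate side and 7.56 on the GABA side, which was the leading gene of cluster 8. Of the genes of other transmitters, 3 of 6 were past 2-fold and lower on the glutamate side, beside 1.84% of all genes: Chat, the acetylcholine synthesis enzyme (0.654 and 7.06 CPM), Th, the first enzyme of catecholamine synthesis (5.31 and 12.6 CPM), and the dopamine transporter Slc6a3 (1.06 and 3.33 CPM).

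Between the hashtags, Abat was at 148 CPM in PVH and 196 CPM in ARC (log2 -0.41, -0.48 to -0.33), and Slc6a11 at 20.1 and 19.7 CPM (log2 0.04, -0.18 to 0.25). Lower in PVH by at least 2-fold were Slc1a3 (3.29 and 7.18 CPM), 1 of 3 uptake genes, and Chat (0.956 and 6.93 CPM) and Slc6a3 (0.598 and 3.95 CPM), 2 of 6 genes of other transmitters, beside 1.74% of all genes. Of the 75 astrocyte-marked nuclei of cluster 8, in which Slc1a3 was among the leading genes, 62 carried the ARC hashtag.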

How the data were processed

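Nuclei of pooled mice were counted in 1 gene expression and 1 hashtag library (10x Genomics). The deposited values are raw counts (UMIs of genes and hashtags in each barcode) that the authors made with Cell Ranger (5.0 in the methods and processing notes, 4.0.0 in the matrix header) on mm10 without normalization. Whether introns were counted is not stated in the sources.

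Kept nuclei had over 800 but under 5000 genes, up to 12000 UMIs and up to 1% of them mitochondrial, as in the study. They were assigned to hashtags with HTODemux at a positive quantile of 0.8 (R 4.3.3, Seurat 5.3.0). Singlets were clustered on 2000 variable genes without the 7 genes (30 components, 20 neighbours, Leiden resolution 0.55, leidenbase 0.1.32). A class name needed its first and at least 3 markers at 1.5-fold, and no other class with more markers passed or more among the leading genes. CPM, shares and intervals were computed with scipy 1.17.1. Only the ratios with their intervals and the likeness of genes were tested on simulated data. Alternatives were another hashtag quantile, other nucleus filters, thinning, at least 2 UMIs, other resolutions and components, and each hashtag clustered alone. Genes with under 50 UMIs in 2 groups compared were not counted. For likeness, genes needed 500 UMIs. Members, lists and thresholds were chosen with earlier results of these data known. The named genes were the 7, the pathway genes past 2-fold and the 5 genes most alike for each of the 7. Gm14204, Gad1os, genes leading a cluster and pathway genes under 2-fold were named after their values were seen. Some genes of the pathway lists, and the list counts that include them, are not reported here.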

Additional observations from a re-analysis of the deposited data

How the results depend on the processing

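No paired analysis was possible because there was 1 library and no replicate, and no replicate could be left out. With the hashtag quantile at 0.99 (1636 singlets), the log2 ratio of PVH over ARC was -0.29 for Slc17a8, 0.18 for Slc32a1, -0.15 for Gad2 and 0.24 for Glul, 3.73% of singlets held Slc17a6 and Slc32a1, and 12.4% a glutamate transporter and a GABA gene. Thinned to 1000 UMIs, the log2 ratio was 0.59 for Slc17a6 and 0.22 for Gad2, and the joint shares were 0.205% and 0.746%. With at least 2 UMIs they were 0.0439% and 1.04%. With ARC nuclei clustered alone, 4 clusters were on the glutamate side, and with PVH nuclei alone, 5 on the GABA side. PVH nuclei alone gave Slc17a6 at 9.96 CPM in Dopaminergic-like and 98.8 CPM in VMH-like neurons, and Slc32a1 at 28.0 CPM in the latter. Classes were named anew there and cover other sets of nuclei. Slc32a1 in Dopaminergic-like neurons was 34.0 CPM at resolution 1.2 and 33.6 CPM with 50 components. At resolution 1.2 the Dopaminergic-like Gad2 was 96.3 CPM. The causes were not tested. Of the class levels, 22 of 357 moved further than their counting interval, and only some of these are given here. The values that moved by less were 54 of 60 log2 ratios, 12 of 18 shares, 14 of 16 cluster counts and 335 of 357 class levels. Among all of them, 0 called values changed sign. Over the alternatives Slc17a6 kept a log2 ratio of 0.59 to 0.80 and Gad1 of -0.55 to -0.35. Leaving out cluster 8, chosen after seeing the data like the splits of clusters 3, 5 and 8, gave log2 ratios of 0.72 for Slc17a6 and -1.28 for Slc17a8. Cluster counts do not show which nuclei kept their side. Most nuclei with a member held 1 UMI of it, which limits every joint share.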

Other observations

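The 2385 nuclei without a hashtag call entered no comparison. At a median of 3926 UMIs they had Slc17a6 at 64.0 CPM (58.9 to 69.3), Slc32a1 at 35.6 CPM (31.9 to 39.7) and Gad1 at 51.8 CPM (47.2 to 56.6). Slc17a6 and Slc32a1 were seen together in 36 of them (1.51%, 1.06 to 2.08).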
